A study of Mus musculus with 4 samples.

Results

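The genes described here are 9 markers of B cells and of plasma cells, the antibody-secreting cells that B cells give rise to. They were taken as every non-control probe of the array whose gene name was Ms4a1, Cd79a, Cd79b, Pax5, Blk, Jchain, Mzb1, Pou2af1 or Fcer2a. All 9 names were found, with 12 probes among 56605 probes and 37074 gene names in all. B cells read antigen through a surface immunoglobulin whose signal is carried by the chains encoded by Cd79a and Cd79b, under a lineage programme set by the transcription factor Pax5. On becoming plasma cells they shut that programme down and turn to making and folding secreted antibody. Both kinds of cell are known from the adventitia and surrounding fat of injured arteries, where they can gather in lymphoid clusters.

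RNA came from abdominal aorta of male mice aged 12 weeks, taken 4 weeks after CaPO4 had been applied to provoke vessel injury. The groups were SR-A1-/- mice with CaPO4 (arrays K4 and K5) and Wild Type mice with CaPO4 (arrays W2 and W3), with 2 single-colour arrays each, and all animals shared the CaPO4 exposure. SR-A1 is the macrophage scavenger receptor encoded by Msr1. The series' design text speaks of 2 independent experiments, while the labels name neither the allele nor the strain and do not say whether an array was 1 animal or a pool. The p-values therefore cover only the variation among these 4 samples, part of which may be technical.

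Levels are log2 signals relative to the array's own 75th percentile, and differences are knockout-labelled minus wild-type-labelled arrays. The 75th percentile of the signal was 245 and 133 on K4 and K5, against 132 and 220 on W2 and W3, and 57.6% to 62.6% of probes were flagged well above background. Msr1 went against the labels. Its probe at transcript base 3231 read -1.26 and -2.09 on K4 and K5, against -5.30 and -2.10 on W2 and W3, and was not well above background on W2. The difference there was 2.03 ± 1.09 (limma standard error, adjusted p = 0.965), with K5 and W3 nearly equal. A second Msr1 probe, at base 624, read -1.50 and -1.38 on K4 and K5, against -6.40 and -2.12 on W2 and W3. That probe too was not well above background on W2. Each direction given here is one between labels. All 10 smooth muscle markers of the vessel wall passed the filter on background, but 5 were lower and 0 higher without overlap. Of all tested genes 13.7% were lower and 16.1% higher in this way. The smooth muscle median difference was -0.46, with summed levels of 1138 and 1369 on K4 and K5, against 1971 and 1451 on W2 and W3. Of 9 white adipocyte markers, 1 was higher on both knockout-labelled arrays, where 16.1% of all tested genes were, and 0 were lower. On K5 their summed level was 55.1, against 672 on K4, 440 on W2 and 730 on W3. In whole tissue, fewer cells of a type and less RNA per cell cannot be told apart.

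Because much of what follows rests on dim probes, the probes through which the array read the receptor chain Cd79a, the lineage factor Pax5 and the B lymphoid Src-family kinase Blk are given here, 5′ to 3′, as the array files hold them. The Cd79a probe starts at base 321 of transcript NM_007655 (chr7:25684357-25684614, mm9), the Pax5 probe at base 566 of NM_008782 (chr4:44692322-44692381, mm9) and the Blk probe at base 1343 of NM_007549 (chr14:63997333-63998470, mm9). For Cd79a and Blk the genome interval is longer than the probe, so the probe does not lie in 1 unbroken stretch of the genome.
Cd79a probe: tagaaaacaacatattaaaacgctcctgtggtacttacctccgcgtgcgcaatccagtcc
Pax5 probe: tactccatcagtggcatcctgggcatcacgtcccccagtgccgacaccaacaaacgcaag
Blk probe: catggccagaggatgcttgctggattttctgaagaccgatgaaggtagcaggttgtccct

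Jchain had the widest difference of the tested members. It encodes the joining chain that links IgM into pentamers and IgA into dimers, and it is made by antibody-secreting cells. Its single probe starts at base 957 of NM_152839 (chr5:88949919-88949978, mm9) and was well above background on all 4 arrays. It read 0.63 and 1.15 on K4 and K5, against -1.03 and -1.63 on W2 and W3. As processed signal this was 377 and 294 on K4 and K5, against 64.6 and 71.1 on W2 and W3. Both knockout-labelled arrays lay above both wild-type-labelled arrays, and the gap between the groups was wider than the gap within either. The means were 0.89 ± 0.37 in the knockout-labelled group and -1.33 ± 0.42 in the wild-type-labelled group (SD, n = 2 each).

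The Jchain difference was 2.22 ± 0.37 (limma standard error, 95% interval 1.26 to 3.17), or 4.65-fold, with an unadjusted p of 0.00195 that ranked 154 of 22497 tested genes. Adjusted over all tested genes the p was 0.284, so Jchain did not pass an adjusted p of 0.05, and 0% of all tested genes did. Of the 4 arrays, K4 and W3 had the higher signal level and K5 and W2 the lower. Within the higher pair Jchain differed by 2.25 and within the lower pair by 2.18. A difference of at least 2-fold upward within both pairs was found in 2.09% of tested genes. With W2 left out the difference was 2.52 and passed, at an adjusted p of 0.0434, where W3 stood alone and was given the spread of K4 and K5. Without K5, the array low in adipocyte markers, it was 1.96, at an adjusted p of 0.97. Over all 13 alternatives tried, the adjusted p lay between these values.

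**Figure D1:**
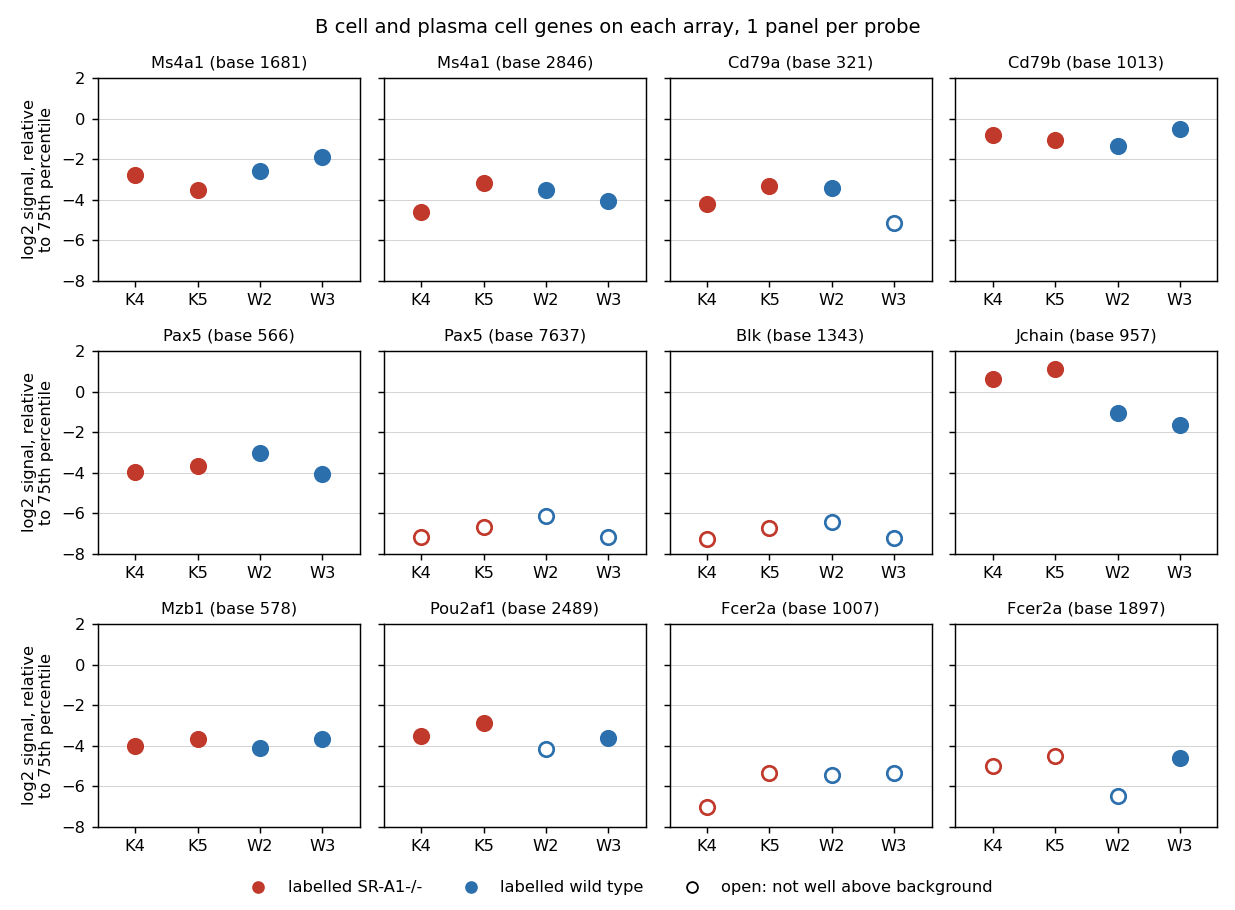
Each panel shows 1 probe of a B cell or plasma cell gene, named with the transcript base where it starts, and the vertical axis is the log2 signal relative to the array's 75th percentile on K4 and K5 (labelled SR-A1-/-) and W2 and W3 (labelled wild type). Filled circles are well above background and open circles are not; Jchain at 0.63 and 1.15 on K4 and K5 lies clear of -1.03 and -1.63 on W2 and W3, while Blk is open on every array.

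**Figure D2:**
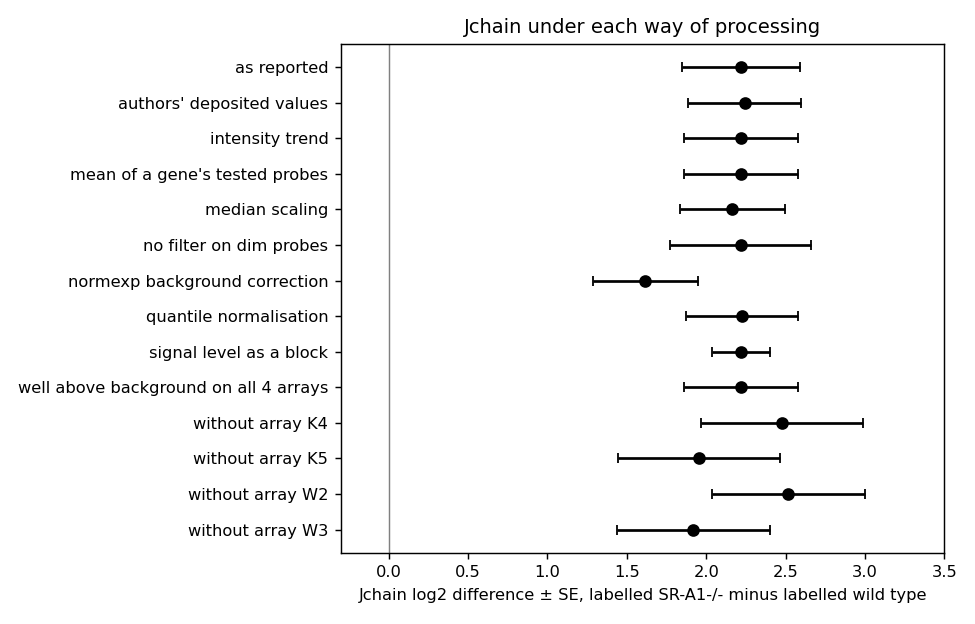
The Jchain log2 difference, knockout-labelled minus wild-type-labelled, is shown with its limma standard error as reported and under 13 alternatives, 1 per row. Values run from 1.62 with normexp background correction to 2.52 without array W2, and all lie above 0. Rows for the intensity trend, the filters and the block repeat 2.22, since they change only the error or the genes tested. Leaving out 1 array could not bring the value below 0, since the groups did not overlap.

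The other gene of antibody secretion had a difference near 0. Mzb1, an endoplasmic reticulum protein that helps immunoglobulin assemble, read -4.02 and -3.67 on K4 and K5, against -4.12 and -3.69 on W2 and W3, from a probe at base 578 of NM_027222. The groups overlapped, with a difference of 0.057 ± 0.32 and a 95% interval of -0.78 to 0.89. Within signal levels it was 0.45 for the lower pair and -0.34 for the higher.

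Pou2af1, the coactivator that B cells recruit to octamer-bound Oct factors and that is needed for germinal centres, read -3.52 and -2.86 on K4 and K5, against -4.17 and -3.60 on W2 and W3. The groups did not overlap, although K4 exceeded W3 by only 0.086, and the probe was not well above background on W2. The difference was 0.70 ± 0.39 (adjusted p = 0.983, 95% interval -0.30 to 1.70), and with normexp background correction it was 0.036.

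Genes of the B cell surface and lineage showed no common direction. Ms4a1, which encodes the B cell membrane protein CD20, had a pair of probes that disagreed. The first, at base 1681 of NM_007641, read -2.78 and -3.51 on K4 and K5, against -2.58 and -1.90 on W2 and W3. Both knockout-labelled arrays were below both wild-type-labelled arrays, by -0.90 ± 0.42 (adjusted p = 0.886), and by -0.93 and -0.88 within the lower and the higher signal pair. With normexp background correction it was -0.29. The other probe, at base 2846 of another transcript, read -4.60 and -3.17 on K4 and K5, against -3.51 and -4.07 on W2 and W3. There the groups overlapped, with a difference of -0.094 ± 0.57 in a fit of all probes, dim ones included.

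The receptor chains did not separate the groups. Cd79b read -0.81 and -1.02 on K4 and K5, against -1.32 and -0.50 on W2 and W3, with both wild-type-labelled values outside the knockout-labelled ones. Its difference was -0.0048 ± 0.38, with a 95% interval of -0.99 to 0.98. Cd79a, its partner, read -4.23 and -3.33 on K4 and K5, against -3.44 and -5.16 on W2 and W3, and was not well above background on W3. Its difference was 0.52 ± 0.67, with a 95% interval of -1.22 to 2.26. The higher Cd79a values fell on the arrays of lower signal level, and its processed signal was 13.0 and 13.2 on K4 and K5, against 12.2 and 6.16 on W2 and W3. The part of array signal level in these values was not tested.

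Pax5 at the probe printed above read -3.96 and -3.69 on K4 and K5, against -3.05 and -4.06 on W2 and W3, so that the wild-type-labelled arrays bracketed the others. Its difference was -0.27 ± 0.43, with a 95% interval of -1.38 to 0.84. A second Pax5 probe, at base 7637 of a longer transcript, was not well above background on any array. The same held for Blk, whose processed signal was 1.58 and 1.24 on K4 and K5, against 1.51 and 1.44 on W2 and W3. Fcer2a encodes CD23, the low-affinity IgE receptor of mature B cells. It was well above background on W3 alone, at -4.59 from its probe at base 1897, and its other probe was not on any array. No difference is given for Blk or Fcer2a, since a difference was not detectable at this signal level.

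**Figure D3:**
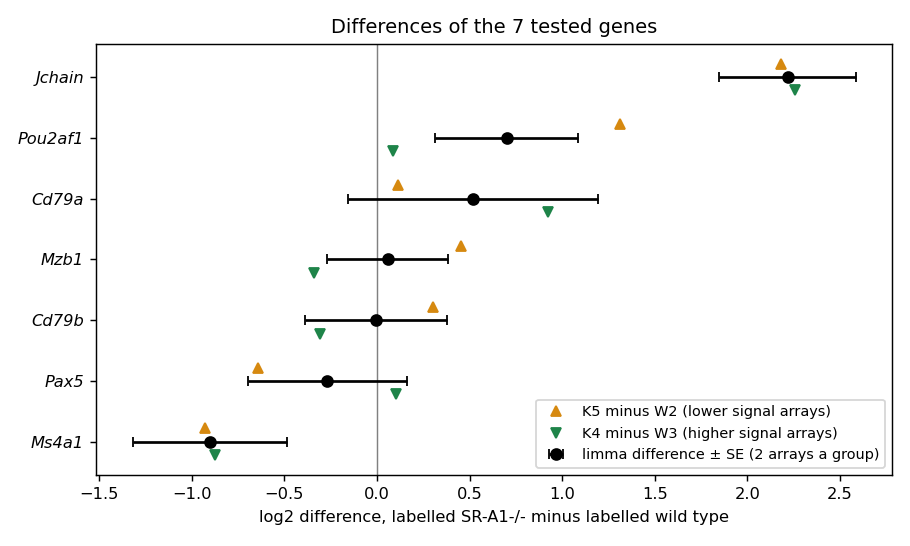
Points are the log2 difference of each tested gene, knockout-labelled minus wild-type-labelled, with bars for the limma standard error from 2 arrays a group; triangles are the differences within the lower signal pair (K5 minus W2) and the higher signal pair (K4 minus W3). Jchain lies at 2.22 with both triangles beside it, whereas the triangles of Mzb1, Cd79b and Pax5 fall on opposite sides of 0.

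Of the 9 genes, 7 had a probe well above background on at least 2 arrays and were tested, and 5 had one on all 4. Their median difference was 0.057, against -0.0057 over all tested genes. Groups did not overlap in 3 of the 7. Jchain and Pou2af1 were higher on both knockout-labelled arrays, where 16.1% of all tested genes were, and Ms4a1 was lower, where 13.7% were. At an unadjusted p under 0.05 there was 1 gene higher, Jchain, where 3.84% of all tested genes were, and 0 lower, where 2.45% were, or 6.29% in both directions. Non-overlapping and at least 2-fold higher was 1 gene, again Jchain, where 3.96% of all tested genes were, and at least 2-fold lower were 0, where 2.44% were. With 2 arrays against 2 an exact two-sided permutation test of a single gene cannot go below a p of 0.333.

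The promoters of Jchain, which differed most, and of Cd79a, which did not differ beyond its error, are shown to set an antibody-secreting cell's gene beside a receptor gene. They are the 250 bases before the gene's start, from RefSeq on GRCm38.p6, at chr5:88527898-88528147 on the minus strand for Jchain and chr7:24897247-24897496 on the plus strand for Cd79a. Capitals mark matches, on either strand, to the octamer ATGCAAAT bound by Oct factors, the E-box CAGGTG bound by E2A, or the Ets core AGGAAG. The EBF1 motif was searched too.
Jchain promoter: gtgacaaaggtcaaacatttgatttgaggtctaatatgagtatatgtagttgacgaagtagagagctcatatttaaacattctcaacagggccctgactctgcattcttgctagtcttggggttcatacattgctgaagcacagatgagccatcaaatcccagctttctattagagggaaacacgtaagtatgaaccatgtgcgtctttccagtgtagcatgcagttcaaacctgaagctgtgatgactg
Cd79a promoter: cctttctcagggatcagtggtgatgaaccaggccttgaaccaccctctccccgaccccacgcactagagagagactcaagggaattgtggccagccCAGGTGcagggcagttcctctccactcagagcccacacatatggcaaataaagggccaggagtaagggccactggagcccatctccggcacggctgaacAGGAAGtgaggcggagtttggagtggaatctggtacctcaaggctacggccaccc

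The Cd79a window held 1 E-box, starting 154 bases before the gene, and 1 Ets core, starting 55 bases before it, and the Jchain window held none of the 4 motifs. Among 32851 promoters of this length, 17.2% held the E-box, 29.5% the Ets core, 1.6% the octamer and 0.779% the EBF1 motif. These 4 motifs did not overlap one another in the printed windows. The table gave promoters for 5 of the 9 genes, and of their 7 promoters none held the octamer or the EBF1 motif. A match is a run of letters and not a bound site.

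Genes that work with these markers were read from lists, whose counts are to be set beside the 16.1% of all tested genes that were higher and the 13.7% that were lower without overlap, and the 6.29% with an unadjusted p under 0.05. Of 12 genes of the receptor complex and its coreceptors, 8 were tested, with a median difference of -0.034, and 2 were higher and 1 lower without overlap. Fcgr2b, the inhibitory Fc receptor, was at 1.0 ± 0.38 (adjusted p = 0.786), and it alone of the 8 had an unadjusted p under 0.05. Cd72, an inhibitory coreceptor, was at 1.24 ± 0.77 and Cd22, the sialic acid-binding inhibitory receptor, at -0.27 ± 0.29.

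Over the 17 tested genes of receptor signalling the median difference was 0.87. Of these 12 were higher on both knockout-labelled arrays and 0 lower, and 5 had an unadjusted p under 0.05, all higher. The median was 1.25 within the lower signal pair and 0.39 within the higher. Their summed level was 34.0 and 28.0 on K4 and K5, against 14.0 and 28.4 on W2 and W3, and the groups overlapped. The adaptor gene Pik3ap1 differed by 1.57 ± 0.32 and Pik3cd, which encodes the catalytic subunit p110δ, by 1.29 ± 0.32 (adjusted p = 0.379 and 0.519). Several genes of this list, such as Syk, Btk, Plcg2 and Ptpn6, are also used by macrophages. The median over macrophage markers was 1.35. Of these 12, 8 were higher and 1 lower without overlap. With limma 8 had an unadjusted p under 0.05, all higher, where 3.84% of all tested genes were higher. Their summed level was 263 and 201 on K4 and K5, against 73.3 and 298 on W2 and W3. This sum weighs bright genes most, and Lyz2, the brightest, read 7.06 and 6.78 on K4 and K5, against 5.25 and 7.86 on W2 and W3. For T cell markers the median was 0.42, 7 of 13 tested members were higher and 0 lower without overlap, and the sums were 8.89 and 18.5 on K4 and K5, against 17.2 and 8.06 on W2 and W3. Their part in the receptor signalling values was not tested.

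Among 13 transcription factors of the B lineage the median was 0.19, with 5 higher and 0 lower without overlap. Pou2f2, 1 of the 5, passed the filter through the knockout-labelled arrays alone, and without it the median over 12 was 0.12, with 4 higher. Ikzf1, a zinc finger factor of all lymphocytes, differed by 1.39 ± 0.28 (adjusted p = 0.368) and Irf8, shared with macrophages and dendritic cells, by 1.01 ± 0.38 (adjusted p = 0.778). Pou2f2, which encodes the octamer-binding partner of Pou2af1, read -4.12 and -2.97 on K4 and K5, against -4.45 and -5.05 on W2 and W3. It was not well above background on either wild-type-labelled array, so its level there is only a bound. On average it was at least 2.11-fold higher on the knockout-labelled arrays (limma adjusted p = 0.817), though K4 at -4.12 lay near W2 at -4.45. That bound sets their mean against the mean, over W2 and W3, of the higher of its own value and the lowest value well above background.

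In the wider plasma cell programme 16 of 18 genes were tested, with a median difference of 0.18. Of these 6 were higher and 0 lower without overlap, where 16.1% and 13.7% of all tested genes were. The median was 0.38 within the lower signal pair and 0.022 within the higher. Summed levels were 156.8 and 145.5 on K4 and K5, against 116.2 and 182 on W2 and W3, and the groups overlapped. Such a sum weighs bright genes most. Hsp90b1, the brightest of the list, read 5.93 and 5.68 on K4 and K5, against 5.38 and 6.27 on W2 and W3. Derl3 read only -3.16 and -1.82 on K4 and K5, against -3.78 and -3.29 on W2 and W3. The part of other cells in the sum and in the genes named next was not tested. With limma 0 of the 16 had an unadjusted p under 0.05, against a share of 6.29% over all genes, which is too near 0 in a list of this size to set the list apart. Slamf7, a surface receptor of plasma cells that other leukocytes also carry, differed by 1.81 ± 0.77, Tnfrsf13b, the receptor TACI, by 0.96 ± 0.46, and Derl3, which helps clear misfolded secretory proteins, by 1.04 ± 0.53 (adjusted p = 0.841, 0.901 and 0.936). Within the lower and the higher signal pair Slamf7 differed by 3.28 and 0.34, Tnfrsf13b by 1.08 and 0.84, and Derl3 by 1.96 and 0.13. Xbp1, which drives expansion of the secretory apparatus, differed by 0.057 ± 0.32, Sdc1, the plasma cell surface proteoglycan, by 0.24 ± 0.36, and Prdm1, the factor that ends the B cell programme, by 0.78 ± 0.50. Tnfrsf17, the plasma cell survival receptor, and Fkbp11 did not reach background on enough arrays to be tested.

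Genes that draw B cells to tissue or keep them alive had a median of 0.29 over 15 tested of 18, with 5 higher and 1 lower without overlap. Tnfsf13b, the survival factor BAFF, differed by 1.04 ± 0.32 and Ccl19, a chemokine of lymphoid stroma, by 1.08 ± 0.36, while Lta, a lymphotoxin subunit, differed by -1.29 ± 0.48 (adjusted p = 0.657, 0.702 and 0.767). Lta was not well above background on K4. Cxcl13, the main B cell attractant, and its receptor gene Cxcr5 were too dim to be tested. Of 10 germinal centre genes 7 were tested, with a median of 0.12, 2 higher and 2 lower without overlap. Their lowest p values were those of Bcl6, the germinal centre repressor, at 0.97 ± 0.43, Fas, a death receptor, at -0.72 ± 0.36, and Basp1 at 1.15 ± 0.59 (adjusted p = 0.862, 0.932 and 0.939). Gcsam and Rgs13 were too dim to be tested.

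**Figure D4:**
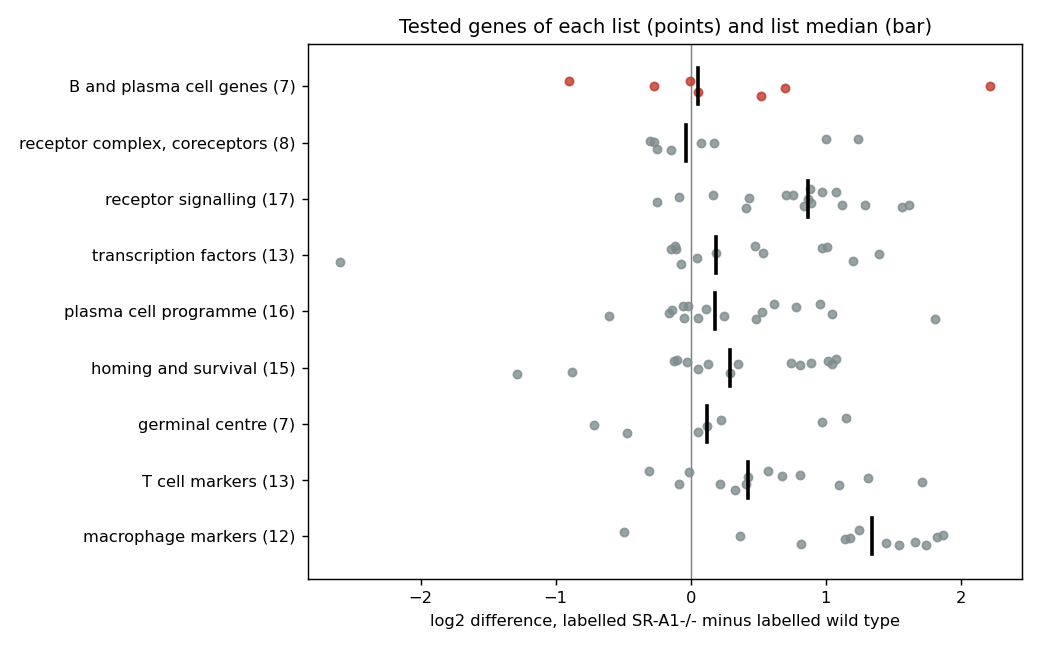
Grey points are log2 differences, knockout-labelled minus wild-type-labelled, of the tested genes of each list, red points those of the B cell and plasma cell genes, and black bars the list medians; the number of tested genes is in brackets. The red points centre on 0.057 with Jchain alone beyond 2, while receptor signalling genes centre on 0.87 and macrophage markers on 1.35.

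Markers of lymph node stroma, of plasmacytoid dendritic cells and of blood in the tissue were read beside these. Their counts are to be set beside the same 16.1% of all tested genes higher and 13.7% lower without overlap. Lymph node stroma had 7 tested of 12 genes, a median of 0.13, and 2 higher without overlap. The gene Coch, 1 of the 2, passed the filter through the knockout-labelled arrays alone, and without it the median over 6 was 0.053, with 1 higher. The summed level of the list was 58.4 and 76.4 on K4 and K5, against 71.0 and 39.3 on W2 and W3. Plasmacytoid dendritic cell markers had 10 tested of 11, a median of -0.24, and 1 higher and 2 lower without overlap, with sums of 103 and 162 on K4 and K5, against 197 and 129 on W2 and W3. Cox6a2, 1 of the 2 lower, differed by -2.10 ± 0.65 (limma adjusted p = 0.666). Most of the skeletal muscle markers given below were lower too, and the part of muscle in the Cox6a2 value was not tested. Red blood cell markers, a measure of blood in the tissue, had 5 tested of 8, a median of 0.89, and 2 higher without overlap, with sums of 251 and 449 on K4 and K5, against 281 and 169 on W2 and W3. The summed level of the tested B cell and plasma cell genes was 2.52 and 3.19 on K4 and K5, against 1.38 and 1.54 on W2 and W3, but without Jchain it was 0.982 and 0.974 on K4 and K5, against 0.893 and 1.22 on W2 and W3, and the groups overlapped.

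Other tissue markers separated the groups as Jchain did. Of 8 skeletal muscle markers 5 were lower and 0 higher without overlap, where 13.7% and 16.1% of all tested genes were. In the limma fit 4 were lower at an unadjusted p under 0.05, where 2.45% of all tested genes were. The median was -1.95, with sums of 119.8 and 209.8 on K4 and K5, against 1127 and 335 on W2 and W3. Of 8 endothelial markers 4 were higher and 1 lower without overlap, with a median of 0.53 and sums of 58.2 and 54.5 on K4 and K5, against 47.2 and 27.0 on W2 and W3. The part of any of these cells, or of smooth muscle, macrophages and T cells, in the Jchain value was not tested.

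The genes with the pattern most like each of Jchain and Cd79a were found by the root-mean-square distance over the 4 arrays, after centring each gene, among 22496 others. For Jchain the 5 nearest lay at 0.0905 to 0.121 and included D7Wsu130e, Tmem8c and Gm38832. Gm38832, and an unnamed entry known by its genome position, were well above background on the knockout-labelled arrays alone. Their wild-type-labelled levels are only bounds, so their likeness to Jchain rests partly on values near background. For Cd79a the 5 nearest lay at 0.0328 to 0.0564 and were Olfr576, Olfr978, Tnr, Opn4 and Nt5dc2. None of the 10 nearest genes belonged to the lists of B cell or plasma cell genes used here. With 4 arrays such a likeness describes only the order and spacing of 4 values.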

How the data were processed

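The arrays were Agilent mouse arrays on 1 slide with 1 scan time. The scanner intensity, deposited as processed signal, came per the file headers from Feature Extraction 12.0.3.1, with spatial and multiplicative detrending and surrogate values for low spots. The submitters' processing notes name version 10.7 and limma. The authors' deposited table holds log2 values. Its 4 medians lay between 4.31 and 4.32. Over probes well above background, its correlation with the log2 scanner signal was at least 0.9998. How it was normalised is not given in the sources used here. Its Jchain values of 8.13 and 8.73 on K4 and K5, and 6.43 and 5.94 on W2 and W3, lay close to those after quantile normalisation. Those were 8.06, 8.66, 6.38 and 5.90 in the same order, so these alternatives are close to repeats.

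Outlier spots (74 to 102 an array) were left out and none was saturated. Spots of a probe were averaged, and log2 signal was taken relative to the array's 75th percentile. A probe was kept (35107 were) if at least 2 arrays flagged it well above background, and the brightest stood for each of 22497 genes. Two-sided tests came from limma 3.58.1 (R 4.3.3), with p-values adjusted over all tested genes by Benjamini-Hochberg and read at 0.05. The procedure was run on simulated data with 200 changed genes among 22497 in each of 5 runs. Of changes of 1 or of 2 in log2, 0% were recovered, against 54.8% at 4 and 89.8% at 8. Unchanged genes called over all runs numbered 17 at a change of 4 and 24 at 8. Precision is limited by there being 4 arrays.

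The members, the lists, the signal level block and the alternatives were chosen with earlier results of these data known. Named genes were all members and, of each list of related genes, the 3 with the lowest p, of which some genes are not reported here. Syk, Btk, Plcg2, Ptpn6, Xbp1, Sdc1, Prdm1, Hsp90b1, Lyz2, Cd247, Cox6a2 and the dim genes were named after their values were seen. The counts without Pou2f2 or Coch and the sum without Jchain were added after the data were seen. Ighm and Ighd were not matched by name and are not reported. Promoter positions are on GRCm38.p6 and probe positions on mm9.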

Additional observations from a re-analysis of the deposited data

How the results depend on the processing

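Jchain, Ms4a1 and Pou2af1 kept their direction under every alternative run: quantile, median and normexp processing, other filters (Pou2af1 did not pass the filter on all 4 arrays), averaging over probes, a trend on intensity, the deposited values, signal level as a block and each array left out. Jchain ran from 1.62 to 2.24 with all arrays kept and from 1.92 to 2.52 with 1 left out, passing the threshold only without W2. Leaving out 1 array could not reverse Jchain, Ms4a1 or Pou2af1, since their groups did not overlap. The intensity trend, the filters and the signal level block changed the error or the genes tested and not these differences. Those settings could therefore not change the direction. Differences near 0 changed sign. Mzb1 was -0.024 in the deposited values, -0.025 with quantile and -0.071 with normexp processing, and between -0.16 and 0.27 with 1 array left out. With 1 array left out Cd79a ran from -0.34 to 1.38, Cd79b from -0.41 to 0.41 (0.10 without K5) and Pax5 from -0.78 to 0.24. The median over the tested members stayed between -0.047 and 0.27.

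The number of genes called was 0 as reported, with 1416 at an unadjusted p under 0.05. It was 8 with quantile normalisation, the deposited values or no filter on dim probes, 7 with median scaling, 5 with an intensity trend, 21 with normexp, and from 0 to 371 with 1 array left out (260 without W2, 371 without W3). Members higher on both knockout-labelled arrays numbered 1 instead of 2 with quantile normalisation, normexp, the deposited values or the filter on all 4 arrays, and 2 to 4 with 1 array left out. Members at an unadjusted p under 0.05 numbered 2 with signal level as a block and 1 to 3 with 1 array left out, 3 of them without W2. Apart from the filter, which tests 5 members, the cause was not tested. No paired analysis was possible because the labels number the arrays of each group differently and pair none of them. Signal over background limits what can be said of Blk, Fcer2a, Cd79a, Pou2af1, Mzb1, Pax5 and the Ms4a1 probe at base 2846.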
